A study of Mus musculus with 18 samples.

Results

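The genes described here are the nuclear effectors of the Hippo pathway: the DNA-binding transcription factors Tead1, Tead2, Tead3 and Tead4, and the co-activators Yap1 (the protein YAP) and Wwtr1 (the protein TAZ). They were taken by their symbols, which gave 6 of the 55335 genes in the count tables. The samples were forebrain nuclei of E14 mouse embryos (embryonic day 14, a time of peak cortical neurogenesis) from crosses of heterozygous mice of the MYT1L S710fsX line. Embryos carried 0 (wild type, WT), 1 (heterozygous, Het) or 2 (homozygous, KO) copies of this frameshift allele of Myt1l, a transcription factor gene of neurons, with 3 embryos of each genotype and no other allele or treatment, so that every cell of an embryo carried its genotype. Each embryo was profiled in 2 runs of single-nucleus RNA sequencing by combinatorial barcoding, which gave 18 libraries, and the runs of an embryo were summed. The embryos came from several litters and both sexes.

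In the Hippo pathway a chain of kinases (Stk3 and Stk4, then Lats1 and Lats2, with the adaptors Sav1 and Mob1a or Mob1b) phosphorylates YAP and TAZ and keeps them out of the nucleus. When the kinases are inactive, YAP and TAZ enter the nucleus and bind TEAD proteins, which contact DNA but need a co-activator to raise transcription. Cell contact and polarity feed into the chain through scaffold proteins such as NF2. In the developing brain the pathway is known for its part in the growth and maintenance of radial glia, the stem cells that line the ventricles.

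After filtering, 194335 nuclei were used, with a median of 2524 UMIs (unique molecular identifiers, counted transcripts) and 1538 genes, and total counts per embryo ran from 42931528 to 73817744. The nuclei were clustered without the 6 members, and clusters were named from markers fixed beforehand, by a rule that was not fixed beforehand. Levels are given in CPM, a gene's counts scaled by all counts of an embryo in a class of nuclei, as mean ± SD over 3 embryos, and they are not divided by transcript length, so levels of different genes were not compared. The 6 classes were radial glia-like nuclei (13.3% of all), intermediate progenitor-like nuclei of the excitatory lineage (10%), inhibitory progenitor-like nuclei (3.5%), excitatory neuron-like nuclei (23.3%), inhibitory neuron-like nuclei (28.3%) and Cajal-Retzius-like nuclei (1.03%, early neurons of the cortical surface that secrete reelin), and each expressed its own markers. The embryo Het 1 stood apart, since all 763 nuclei of a cluster of diencephalic neurons seen at a finer resolution came from it. Of the barcodes, 311 occurred in both runs of 1 embryo and 3429 in more than 1 embryo.

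In GRCm38 coordinates Tead1 lies on chromosome 7 (112679318 to 112906807, plus strand, ENSMUSG00000055320.17) and Tead2 on chromosome 7 (45215753 to 45233644, plus strand, ENSMUSG00000030796.17). Tead3 lies on chromosome 17 (28331671 to 28350817, minus strand, ENSMUSG00000002249.21) and Tead4 on chromosome 6 (128224288 to 128300823, minus strand, ENSMUSG00000030353.15). Yap1 lies on chromosome 9 (7931999 to 8004596, minus strand, ENSMUSG00000053110.13) and Wwtr1 on chromosome 3 (57455649 to 57575910, minus strand, ENSMUSG00000027803.14). Tead3 overlaps no other annotated gene, whereas the other 5 overlap 1 or 2 genes each (Tead1 2310014F06Rik and Gm44462, Tead2 Cd37, Tead4 Gm21893, Yap1 Gm20416, Wwtr1 Gm16016). The sources used here do not say whether counting used strand, and counts of those 5 genes may include reads of the gene that overlaps them.

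The promoters of 3 members are shown because Yap1 and Tead3 were the members called in KO excitatory neuron-like nuclei and Wwtr1 was the co-activator that was not. The sequences are from RefSeq (GRCm38.p6) and end at the base before the gene's first exon. They are written 5′ to 3′ on the gene's own strand and cut to the stretch outside annotated exons. Capitals mark the letters GGAATG (or CATTCC, the same letters on the other strand), the core recognised by TEAD proteins, and AAGTT (or AACTT on the other strand), the core recognised by MYT1L.
Yap1, chr9:8004597-8004829, minus strand: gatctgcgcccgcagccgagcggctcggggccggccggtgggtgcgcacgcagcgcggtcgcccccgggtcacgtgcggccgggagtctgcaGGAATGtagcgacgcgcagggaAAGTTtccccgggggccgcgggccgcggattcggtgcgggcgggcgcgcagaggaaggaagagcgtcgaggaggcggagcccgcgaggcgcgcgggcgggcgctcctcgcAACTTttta
Tead3, chr17:28350818-28351055, minus strand: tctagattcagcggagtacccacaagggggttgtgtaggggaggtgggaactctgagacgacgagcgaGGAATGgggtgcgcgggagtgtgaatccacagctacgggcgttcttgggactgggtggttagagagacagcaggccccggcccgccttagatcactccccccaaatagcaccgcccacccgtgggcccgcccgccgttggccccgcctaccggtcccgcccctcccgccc
Wwtr1, chr3:57575911-57576160, minus strand: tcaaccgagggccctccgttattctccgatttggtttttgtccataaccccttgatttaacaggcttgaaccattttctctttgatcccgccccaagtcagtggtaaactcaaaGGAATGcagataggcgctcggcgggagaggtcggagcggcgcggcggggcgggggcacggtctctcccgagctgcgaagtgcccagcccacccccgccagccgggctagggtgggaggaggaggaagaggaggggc

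The Yap1 stretch of 233 bases held 1 copy of the TEAD letters and 2 of the MYT1L letters, and the Tead3 stretch of 238 bases and the Wwtr1 stretch of 250 bases held 1 copy of the TEAD letters each and no MYT1L letters. The Tead2 stretch (211 bases) held neither. Over the full windows of 250 bases before each listed start, which may reach into exons, the MYT1L letters were in the 1 window of Tead2, 2 of 3 of Tead3, the 1 of Yap1 and 0 of 2 of Wwtr1, and the TEAD letters in 0 of 1, 2 of 3, 1 of 1 and 2 of 2. Windows for Tead1 and Tead4 were not analysed here. Of all 32851 RefSeq windows of 250 bases before a gene start, 12.6% held the TEAD letters and 35.3% the MYT1L letters. These matches describe the letters and show no binding.

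Among the 6 classes both co-activators were highest in radial glia-like nuclei. In WT, Yap1 stood at 108 ± 8.72 CPM in radial glia-like nuclei, 30.9 ± 4.66 in intermediate progenitor-like nuclei and 15.8 ± 2.74 in inhibitory progenitor-like nuclei, and these 3 classes did not overlap over embryos. It was between 3.71 and 5.42 CPM on average in the 3 neuron classes. Yap1 in Cajal-Retzius-like nuclei (1.85 to 11.5 CPM) overlapped both other neuron classes, while the values of excitatory neuron-like nuclei (5.28 to 5.51) lay above those of inhibitory neuron-like nuclei (3.19 to 4.30). Wwtr1 fell along the same steps, from 215 ± 3.94 CPM in radial glia-like nuclei to 36.2 ± 1.85 and 19.7 ± 0.666 CPM in the progenitor-like classes, and to 4.26 ± 0.0908 in inhibitory neuron-like, 3.80 ± 0.284 in Cajal-Retzius-like and 3.64 ± 0.334 in excitatory neuron-like nuclei. Radial glia-like nuclei, 13.3% of all nuclei, held 46.3% of all Yap1 counts and 52.5% of all Wwtr1 counts.

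**Figure D1:**
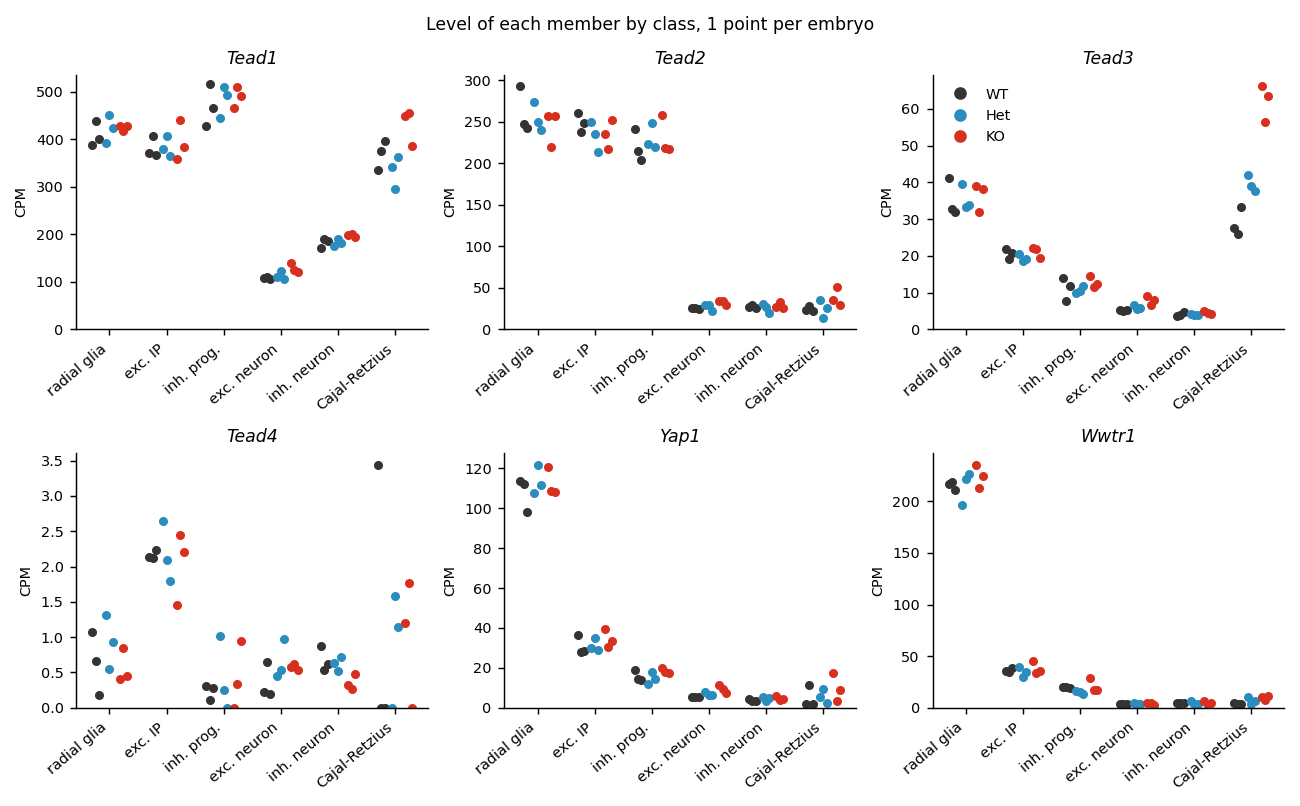
Level of each member (y axis, CPM, from 0) in 6 classes of nuclei (x axis), with 1 point for each of 9 embryos coloured by genotype. Yap1 and Wwtr1 are highest in radial glia-like nuclei, Tead2 is high in the 3 progenitor classes, Tead1 is also high in Cajal-Retzius-like nuclei, and Tead3 in Cajal-Retzius-like nuclei is highest in the 3 KO embryos.

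The Tead genes followed other patterns. Tead1 was high in progenitors and in Cajal-Retzius-like nuclei alike. Its WT level was 470 ± 44.2 CPM in inhibitory progenitor-like nuclei, 409 ± 25.6 in radial glia-like nuclei, 381 ± 22.2 in intermediate progenitor-like and 369 ± 31 in Cajal-Retzius-like nuclei, and each of these overlapped its neighbour in the order. Tead1 then fell to 182 ± 10.3 CPM in inhibitory and 109 ± 1.53 CPM in excitatory neuron-like nuclei, without overlap.

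As class values, Tead2 separated progenitors from neurons. Clusters within the neuron classes were uneven, with WT means from 3.69 to 102 CPM in inhibitory and from 5.41 to 47.7 CPM in excitatory neuron-like clusters. Tead2 was at 261 ± 27.8 CPM in radial glia-like, 249 ± 11.6 in intermediate progenitor-like and 220 ± 19 in inhibitory progenitor-like nuclei, with overlap between neighbours. In inhibitory neuron-like (27 ± 1.79), excitatory neuron-like (24.9 ± 0.704) and Cajal-Retzius-like nuclei (24.8 ± 3.48 CPM) the levels of the classes overlapped each other and lay below every value of the progenitor classes. Inhibitory progenitor-like nuclei, a class of 1 cluster, thus had Tead2 close to that of radial glia-like nuclei, while their Yap1 and Wwtr1 were far lower. An unnamed cluster led by Otx2os1, Ano1 and Otx2 held 10 of the radial glia and 5 of the inhibitory progenitor markers. It had 284 CPM of Tead2, 91.0 of Yap1 and 117 of Wwtr1 on average in WT.

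Tead3 was the only Tead gene besides Tead1 that stood high in a neuron class. Its WT level was 35.2 ± 5.19 CPM in radial glia-like and 28.9 ± 3.9 CPM in Cajal-Retzius-like nuclei, which overlapped, against 20.5 ± 1.4 in intermediate progenitor-like nuclei, 11.2 ± 3.17 in inhibitory progenitor-like nuclei, 5.17 ± 0.139 in excitatory neuron-like and 4.06 ± 0.500 in inhibitory neuron-like nuclei. Each step after the Cajal-Retzius-like class was without overlap. Cajal-Retzius-like nuclei, 1.03% of all nuclei, held 4.05% of Tead3 counts and 0.299% of Yap1 counts.

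Tead4 was near its detection limit in all 6 classes, at a mean of 0.234 to 2.16 CPM in WT, and 0 to 16 counts of it were found per embryo and class. The level in WT was highest on average in intermediate progenitor-like nuclei (2.16 ± 0.0595 CPM), with overlap with Cajal-Retzius-like nuclei (0 to 3.44 CPM). It was higher in an unnamed cluster with markers of immune, endothelial and mural cells, at a mean of 26.3 CPM over the 9 embryos (range 0 to 52.0). That cluster, 0.356% of nuclei, held 9.78% of all Tead4 counts.

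Across the 27 clusters in WT, Yap1 and Wwtr1 were correlated (Pearson r 0.954 on log2(CPM + 1) values), as a description of clusters that share libraries. Neuron clusters did not keep 1 order. Excitatory neuron-like cluster 10 had 4.87 CPM of Yap1 and 2.23 of Wwtr1, and inhibitory neuron-like cluster 0 had 3.07 and 4.46. The counts of Wwtr1 and Yap1 did not keep 1 ratio either. Over all embryos, Wwtr1 had 1.96 counts for each Yap1 count in radial glia-like nuclei (14496 and 7397 counts), 1.12 in both progenitor-like classes, 1 in inhibitory neuron-like and 0.559 in excitatory neuron-like nuclei (511 and 915 counts). In excitatory neuron-like nuclei the ratio was 0.678 in WT, 0.628 in Het and 0.429 in KO. It was also lower in Het and KO than in WT in inhibitory neuron-like (1.17, 0.955 and 0.915) and inhibitory progenitor-like nuclei (1.27, 1.01 and 1.07), and in Cajal-Retzius-like nuclei, from 8 to 26 counts a genotype, it was 0.714, 1.39 and 0.98. In radial glia-like nuclei it was 1.99, 1.88 and 2 and in intermediate progenitor-like nuclei 1.19, 1.09 and 1.1. These ratios were not tested. An unnamed cluster led by Gm29521, Mybpc1 and Htra1, which held 8 of the radial glia markers, had 370 CPM of Wwtr1 and 113 CPM of Yap1, and the cluster of vascular and immune markers had 237 and 30.2 CPM. Since counts were not divided by length, only the shift of this ratio between nuclei can be read, not which gene had more molecules.

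**Figure D2:**
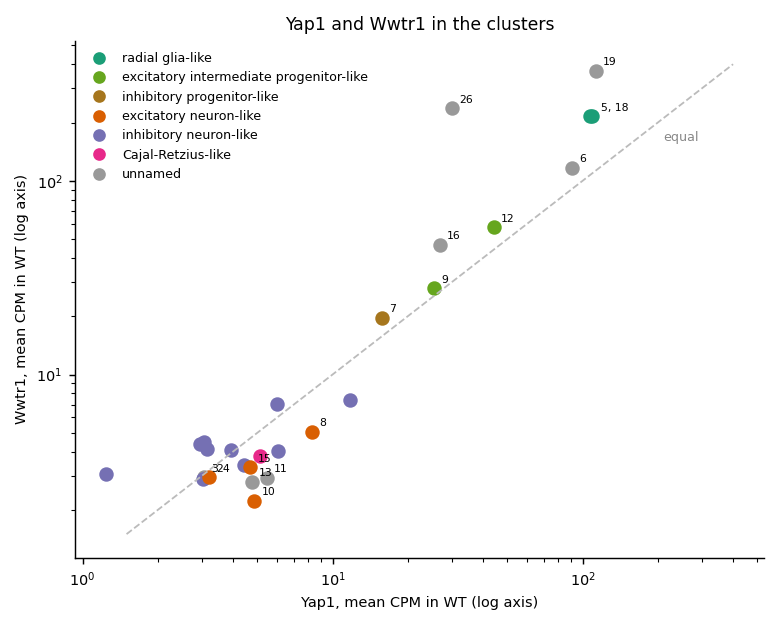
Mean WT level of Yap1 (x axis) and Wwtr1 (y axis) in 27 clusters, both in CPM on log axes, coloured by class; numbers name clusters of progenitors, excitatory neurons and unnamed clusters, and the dashed line marks equal CPM. Radial glia-like clusters 5 and 18, progenitor-like clusters 7, 9 and 12 and unnamed clusters 6, 16, 19 and 26 lie above the line. Excitatory neuron-like clusters 8, 10, 15 and 24 and unnamed clusters 3, 11 and 13 lie below it. Counts were not divided by length, so the line does not show which gene had more molecules.

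Genes most like each member were ranked by the same correlation over 27 clusters among 10711 genes. For Yap1 they were Notch2 (r 0.977), Dusp16 and Ttc23. For Wwtr1 they were Zfp36l1 (0.985), Plce1 and Lamb2, and for Tead1 Parva (0.857), Sox9 and Ift74. Tead2 was followed by Gpbp1l1, Ctnna1 (both 0.965) and Fam193a, Tead3 by Sfr1 (0.942), Snrnp48 and Nedd8, and Tead4 by Stat6 (0.895), Vasp and Nckap1l. Among the members, Tead4 correlated least with the others (0.279 to 0.503).

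The comparison of genotypes asked how loss of MYT1L changed these genes. The frameshift leaves Myt1l RNA measurable, so its level does not check the labels: in excitatory neuron-like nuclei it was 2014, 2307 and 2218 CPM in WT, 2330, 2602 and 2551 in Het and 2775, 2998 and 2775 in KO (log2 fold change 0.41, SE 0.0779, edgeR adjusted p = 0.0242). Differences were called where the adjusted p of edgeR's quasi-likelihood test over all genes of a class was under 0.05 and the log2 fold change was beyond 0.2.

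In excitatory neuron-like nuclei 2 members rose in KO, the co-activator Yap1 and its DNA-binding partner Tead3. For comparison, 0.699% of the 18037 genes tested there were called higher. Yap1 was at 5.51, 5.47 and 5.28 CPM in the WT embryos, 7.73, 6.26 and 6.18 in Het and 11.4, 9.35 and 7.56 in KO. All KO and all Het values lay above every WT value, and only the lowest KO value fell within the Het range. The KO change was 0.81 on the log2 scale (SE 0.160, 1.75-fold, edgeR adjusted p = 0.0286), and DESeq2 also called it (adjusted p = 0.00318).

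Tead3 stood at 5.27, 5.01 and 5.22 CPM in WT, 6.76, 5.68 and 5.85 in Het and 8.98, 6.57 and 7.90 in KO. Again every KO and Het value was above every WT value, and the lowest KO value was within the Het range. The KO change was 0.62 (SE 0.136, 1.53-fold, edgeR adjusted p = 0.0467, DESeq2 adjusted p = 0.0458).

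The other members in excitatory neuron-like nuclei did not pass this test. Tead2 was at 25.4, 25.3 and 24.1 CPM in WT and 34.7, 33.8 and 29.8 in KO (log2 fold change 0.42, SE 0.113, edgeR adjusted p = 0.104), and Tead1 at 109, 110 and 107 in WT and 140, 126 and 121 in KO (0.27, SE 0.0789, edgeR adjusted p = 0.132). For both, every KO value was above every WT value. The share of all genes whose values part in this way is not given, so such separation is a description only, here and wherever else it is stated. Wwtr1 was at 3.32, 3.98 and 3.61 CPM in WT and 5.04, 4.58 and 2.71 in KO, which overlapped (0.15, SE 0.215, edgeR adjusted p = 0.839). Tead4 was too low to test.

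With the replicate number as a block, Tead2 (adjusted p = 0.00155) and Tead1 (0.00863) were called too and Wwtr1 was not, so that 4 of 5 members tested rose, against 3.56% of all genes. Tead2 was also called without the filter on low counts (0.39, edgeR adjusted p = 0.0130, with 0.738% of genes called higher) and without Het 3 (adjusted p = 0.0498), while in run 1 alone its change was 0.14 (0.931). Without the block, the Tead3 call rested on every embryo, since leaving out any 1 of the 9 gave an adjusted p of 0.0514 (Het 1) to 0.152 (WT 3), while its change stayed between 0.51 and 0.71. It was also not called where nuclei with many UMIs or genes were kept (0.0632), without doublet removal (0.0805), in run 2 alone (0.0775) or in run 1 alone (0.701), with changes of 0.57 to 0.70. The Yap1 call was lost on leaving out WT 1 (0.0947), WT 2 (0.0862), WT 3 (0.111), KO 1 (0.0838) or KO 2 (0.116), in a fit of the 6 WT and KO embryos alone (0.0509) and in run 1 alone (0.792), with changes of 0.46 to 0.84. In the fit of 6 embryos Tead3 was at 0.0784.

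**Figure D3:**
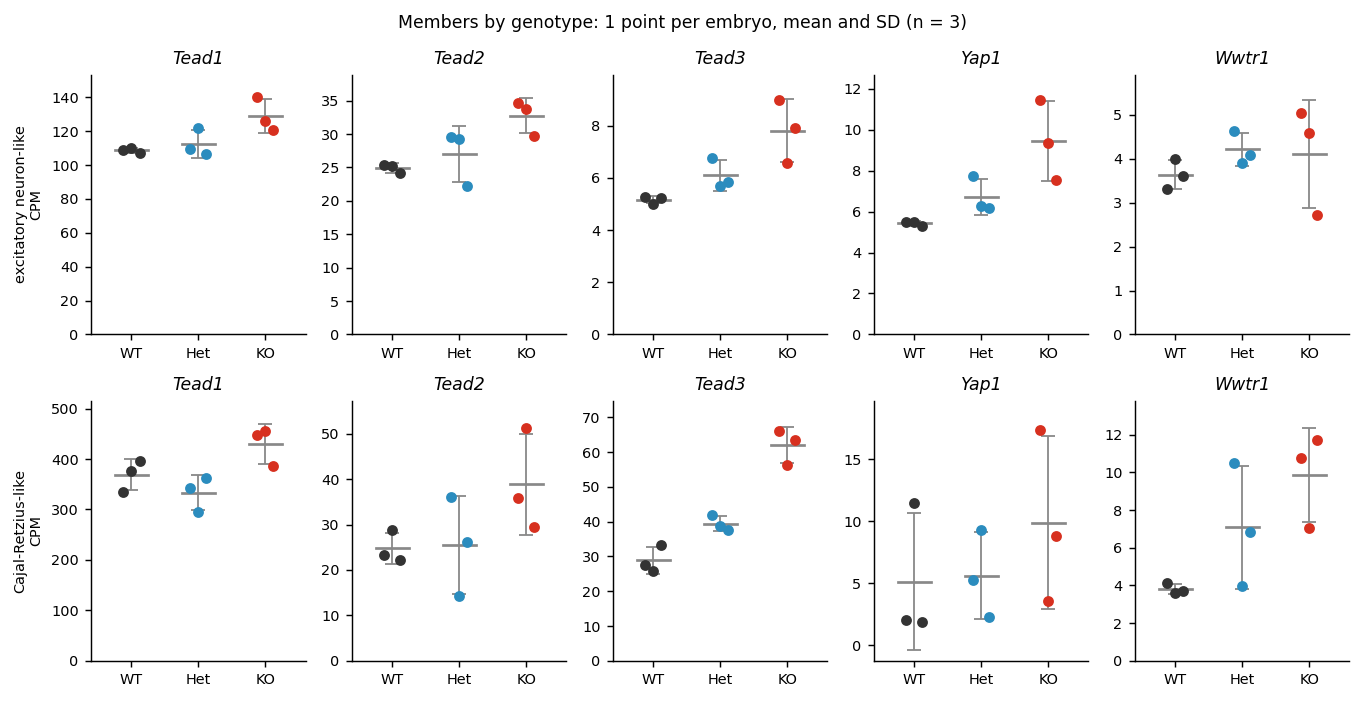
Level of 5 members (y axis, CPM) by genotype in excitatory neuron-like nuclei (upper row) and Cajal-Retzius-like nuclei (lower row); points are embryos and lines the mean and SD (n = 3). Yap1 and Tead3 of the upper row rise from WT over Het to KO, with every KO point above every WT point, as does Tead3 of the lower row, while Wwtr1 of the upper row overlaps between genotypes.

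Markers of other cell types were summed in the same excitatory neuron-like nuclei. The 11 radial glia markers, all detected, summed to 158 to 172 CPM in WT and 151 to 165 in KO, and the 7 markers of excitatory intermediate progenitors to 163 to 179 in WT and 162 to 189 in KO. The KO range overlapped the WT range in both lists. Of the 6 markers of diencephalic neurons 4 were tested and 1 (Lef1) was called higher in KO, while their sum was 219 to 246 CPM in WT and 192 to 245 in KO. The part of these other cell types in the Yap1 and Tead3 results was not tested. The 12 inhibitory neuron markers ranged from 107 to 319 CPM, with KO 1 highest. KO 1 also had the highest Yap1 and Tead3; without it their changes were 0.66 (edgeR adjusted p = 0.0838) and 0.51 (0.137).

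The clusters within the excitatory neuron-like class took similar but not equal shares by genotype. Cluster 8, led by Cemip, made up 35.7 to 39.8% of the class in WT and 39.7 to 45.4% in KO, and it had the highest Yap1 of the 4 clusters in WT (8.25 CPM). The part of this shift in the class value was not tested, but the members were also compared within each cluster.

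Of the 15 neuron clusters 14 had enough nuclei for a test. In cluster 24, led by Hs3st3b1 and Rgs6, Yap1 was at 3.02, 2.39 and 4.24 CPM in WT and 8.99, 6.45 and 6.87 in KO (log2 fold change 1.19, SE 0.277, edgeR adjusted p = 0.0355). Tead3 there was at 2.24, 1.84 and 2.62 CPM in WT and 4.68, 4.51 and 5.20 in KO (1.17, SE 0.266, edgeR adjusted p = 0.0331), without overlap for either gene. In this cluster 1.65% of genes were called higher. The values within clusters rest on only a part of the counts of the class, which were 73 to 139 for Tead3 and 76 to 133 for Yap1 per embryo. Counts within the clusters are not given here.

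In cluster 15, led by Tfap2d, Yap1 was at 4.19, 4.97 and 4.88 CPM in WT and 10.8, 9.75 and 8.98 in KO (1.05, SE 0.235, edgeR adjusted p = 0.0439, with 0.466% of genes called higher). In cluster 10, also of excitatory neuron-like nuclei, Tead2 rose from 18.9, 12.3 and 16.7 CPM in WT to 36.4, 32.9 and 32.5 in KO (1.14, SE 0.215, edgeR adjusted p = 0.00625, with 1.69% of genes called higher). Tead3 there was at 5.68, 7.96 and 4.58 CPM in WT and 19.1, 12.3 and 11 in KO (1.11, edgeR adjusted p = 0.0978) and Tead1 at 92.5, 93.8 and 101 in WT and 120, 138 and 117 in KO (0.41, edgeR adjusted p = 0.0867). For both, every KO value lay above every WT value, and neither was called without the block. With the replicate block, Tead3 (adjusted p = 0.0180) and Tead1 (0.0168) in cluster 10, Tead2 in cluster 15 (0.0258) and Tead1 in cluster 24 (0.00791) were called as well. The block also raised the share of all genes called higher, which reached 2.93% (cluster 10), 2.31% (cluster 15) and 4.59% (cluster 24). Cluster 8 had no member called by edgeR or DESeq2, 0 with an unadjusted p under 0.05 and 0% of genes called higher, and its Yap1 was at 9.34, 8.24 and 7.16 CPM in WT and 14.9, 10.8 and 7.55 in KO (0.43, SE 0.232, edgeR adjusted p = 0.825). Whether the changes differed between clusters was not tested.

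Among the cluster calls made without the block, Tead2 in cluster 10 was lost only without WT 2 (edgeR adjusted p = 0.0558) among the 9 embryos left out in turn. Yap1 in cluster 15 was lost without any embryo but Het 3, Tead3 in cluster 24 without any WT or KO embryo, and Yap1 in cluster 24 without Het 2 or any WT or KO embryo, at adjusted p of 0.0501 to 0.173, while their changes stayed between 0.97 and 1.4. Yap1 in cluster 24 was not called by DESeq2 (adjusted p = 0.0830), nor were Yap1 in cluster 15 without doublet removal (edgeR adjusted p = 0.132) and Tead3 in cluster 24 without upper limits on UMIs and genes (0.0800). DESeq2 gave Yap1 in cluster 15 and Tead3 in cluster 24 no adjusted p. Across all clusters, the Yap1 change was above 0 in 18 of the 18 in which it could be tested and that of Tead1 in 25 of 26, that of Tead3 in 16 of 18, that of Tead2 in 16 of 23 and that of Wwtr1 in 9 of 15, as a description of clusters that share embryos. Of the 26 clusters fitted, those with Yap1 too low to test had a higher mean in KO, except cluster 14 (4.42 CPM in WT, 3.67 in KO). The share of all genes with a change above 0 in the clusters is not given here. In the clusters of inhibitory neuron-like nuclei edgeR called 0 of 23 members tested, counted once per cluster, DESeq2 0 of the 20 it gave an adjusted p, 3 had an unadjusted p under 0.05, and 0.0503% of tests over all genes were calls of a higher level.

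**Figure D4:**
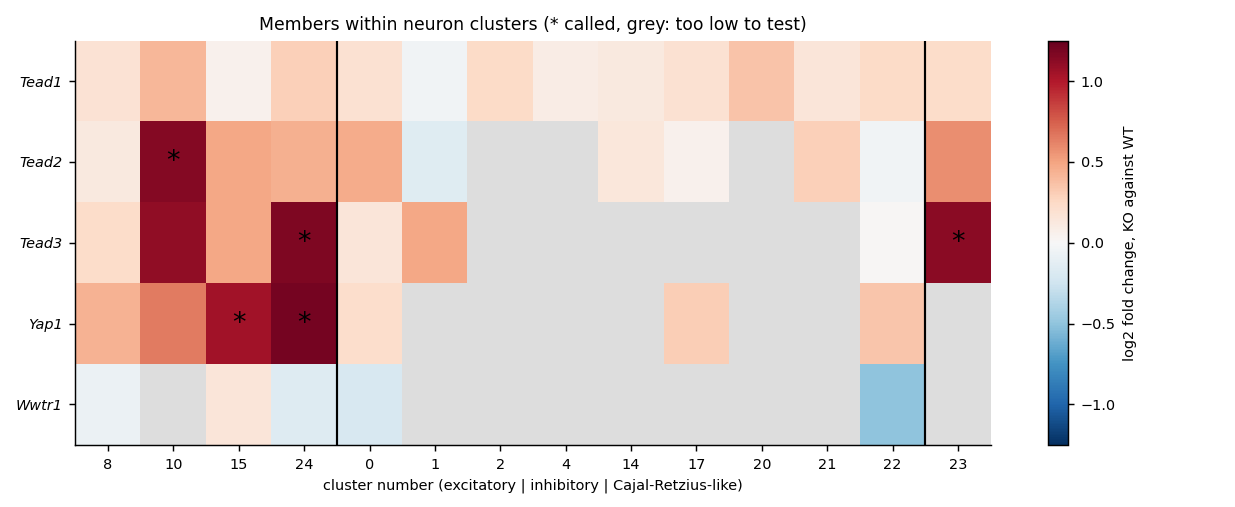
Log2 fold change of 5 members in KO against WT (colour scale) within 14 neuron clusters (x axis, cluster number; vertical lines part excitatory, inhibitory and Cajal-Retzius-like clusters). Stars mark called changes (Tead2 in cluster 10, Yap1 in 15 and 24, Tead3 in 24 and 23), and grey cells were too low to test.

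Cajal-Retzius-like nuclei were compared next, with 144 to 308 nuclei per embryo. Of the 6 members 3 were expressed highly enough for a test, and Tead3 rose, in a class in which 0.15% of 8694 genes were called higher. Tead3 was at 27.5, 25.8 and 33.3 CPM in WT, 41.9, 38.9 and 37.5 in Het and 66.2, 56.5 and 63.6 in KO, so that the 3 genotypes did not overlap. The log2 fold change was 1.13 in KO (SE 0.204, 2.19-fold, edgeR adjusted p = 0.0192) and 0.46 in Het (SE 0.222, edgeR adjusted p = 1), from 18 to 65 counts per embryo.

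Tead2 in the same nuclei was at 23.4, 28.7 and 22.2 CPM in WT and 36.0, 51.2 and 29.4 in KO (0.59, SE 0.302, edgeR adjusted p = 0.604), and Tead1 at 335, 376 and 396 in WT and 448, 456 and 385 in KO (0.23, SE 0.117, edgeR adjusted p = 0.597). Without KO 2 the Tead2 change was 0.38. Wwtr1 rested on 2 to 12 counts per embryo and was not tested within this class. It was at 4.13, 3.59 and 3.70 CPM in WT and 10.8, 7.06 and 11.7 in KO, with every KO value above every WT value. Yap1 rested on 1 to 14 counts, and its values overlapped between genotypes.

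The Tead3 call in these nuclei failed on leaving out WT 1 (edgeR adjusted p = 0.154), WT 2 (0.0521), KO 2 (0.0533) or KO 3 (0.0530) and in run 2 alone (0.0526), with changes of 1.00 to 1.18. DESeq2 gave no adjusted p for it, and run 1 alone held too few nuclei. The 11 radial glia markers summed to 211 to 233 CPM in WT and 195 to 272 in KO. The 10 markers of mural cells and fibroblasts summed to 16.3 to 27.7 CPM in WT and 23.3 to 36.2 in KO, and the 6 of choroid plexus and cortical hem, of which Ttr was at 0, to 619 to 1084 in WT and 877 to 1173 in KO. Their part in the Tead3 result was not tested.

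No member was called in the other 4 classes. In radial glia-like nuclei, of the 6 classes the one with the highest Yap1 and Wwtr1, Yap1 was at 114, 112 and 98.0 CPM in WT and 121, 109 and 108 in KO (log2 fold change 0.07, SE 0.0815), and Wwtr1 at 216, 218 and 211 in WT and 235, 213 and 224 in KO (0.07, SE 0.0674). The values of both genes overlapped. Over 5 members tested in these nuclei the KO changes ran from -0.08 to 0.07. In intermediate progenitor-like nuclei all 6 were tested, with changes from -0.06 to 0.19, and in inhibitory progenitor-like nuclei 5, with changes from 0.01 to 0.23. In these 3 classes edgeR and DESeq2 called 0 members, 0 had an unadjusted p under 0.05, and edgeR called 0% of all genes higher.

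In inhibitory neuron-like nuclei edgeR called 0 of 6 members and DESeq2 0 of the 2 it gave an adjusted p (Tead1 and Tead2), 0 had an unadjusted p under 0.05, and 0.0105% of genes were called higher. Yap1 there was at 4.30, 3.19 and 3.62 CPM in WT and 5.99, 3.78 and 4.60 in KO, which overlapped (0.37, SE 0.200, edgeR adjusted p = 0.894; 0.20 without KO 1). Tead1 was at 171, 190 and 187 CPM in WT and 200, 201 and 195 in KO, without overlap (0.15, SE 0.0712, edgeR adjusted p = 0.887; 0.09 without WT 1). Tead4 was at 0.869, 0.535 and 0.621 CPM in WT and 0.317, 0.259 and 0.474 in KO, from 4 to 13 counts per embryo (-0.79, SE 0.343, edgeR adjusted p = 0.887).

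Whether the KO change of a member differed between classes was tested as an interaction, with each embryo as its own control. The Yap1 change was larger in excitatory neuron-like than in radial glia-like nuclei by 0.74 (SE 0.145, edgeR adjusted p = 0.0443), and 0.418% of genes were called for this difference. It was not called without any 1 of WT 1, WT 2, WT 3, Het 2, Het 3, KO 1 or KO 2 (0.0505 to 0.174), nor without doublet removal (0.0624). For Tead2 the difference was 0.49 (SE 0.112, edgeR adjusted p = 0.0761), for Tead3 0.54 (SE 0.130, 0.0950), for Tead1 0.21 (SE 0.0755, 0.358) and for Wwtr1 0.07 (SE 0.197, 0.960). Of the 5 members tested for this pair, 4 had an unadjusted p under 0.05 (all but Wwtr1). No member was called between inhibitory and excitatory neuron-like nuclei, where 0.0153% of genes were called. There 3 of 6 members had an unadjusted p under 0.05: Tead2 (-0.31), Tead3 (-0.42) and Tead4 (-1.44), at edgeR adjusted p of 0.343 to 0.693. Tead4 rested on 3 to 13 counts per embryo in excitatory neuron-like nuclei, where it was too low to test within the class, and on 4 to 13 in inhibitory neuron-like nuclei. For Yap1 this difference was -0.42 (SE 0.199, edgeR adjusted p = 0.761), so the Yap1 change was not shown to differ between the neuron classes. Nor was any member called between Cajal-Retzius-like and excitatory neuron-like nuclei, with 0.24% of genes called. There 1 member, Wwtr1, had an unadjusted p under 0.05 (1.42, SE 0.638, edgeR adjusted p = 0.831), from few counts in Cajal-Retzius-like nuclei. Tead3 differed there by 0.52 (SE 0.276, edgeR adjusted p = 0.915). The share of all genes at an unadjusted p under 0.05 is not given for these differences.

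**Figure D5:**
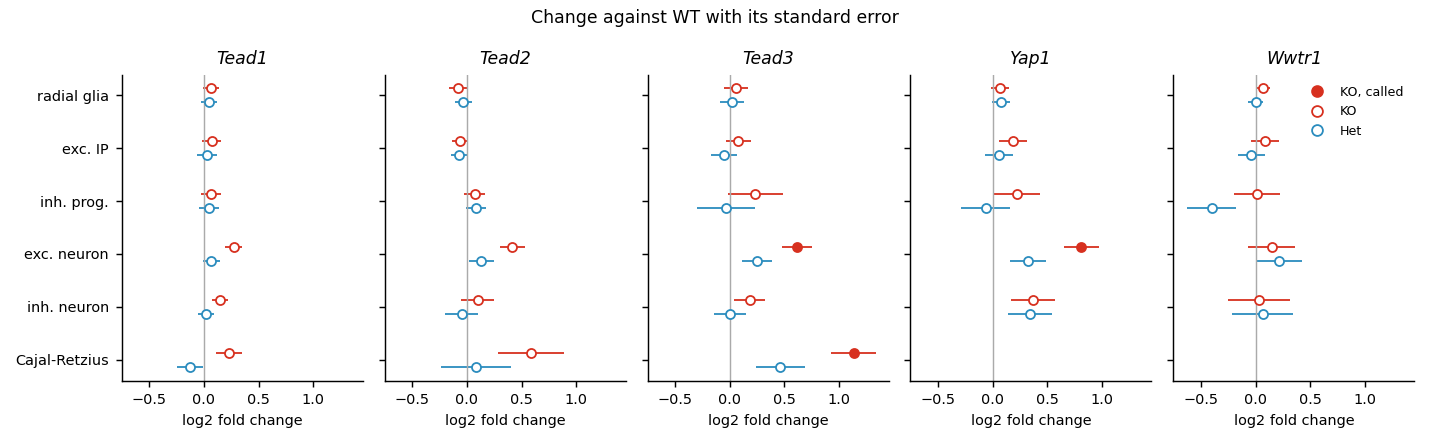
Log2 fold change of 5 members against WT (x axis) with its standard error, for KO (red) and Het (blue), in 6 classes (y axis); filled points are called, and members too low to test have no point. The called points are Yap1 and Tead3 in excitatory neuron-like nuclei and Tead3 in Cajal-Retzius-like nuclei, while the points of radial glia-like nuclei lie near 0.

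In Het, edgeR and DESeq2 called 0 members in any class, 0 had an unadjusted p under 0.05, and edgeR called 0% of all genes in each of the 6 classes. In excitatory neuron-like nuclei the Het change of Yap1 was 0.32 (SE 0.166, edgeR adjusted p = 1) and that of Tead3 0.25 (SE 0.140, edgeR adjusted p = 1), and in all 3 Het embryos both genes stood above every WT embryo. The share of all genes whose Het or KO values part from WT in this way is not given here. Such separation is therefore a description only. Wwtr1 in inhibitory progenitor-like nuclei was at 20.3, 19.8 and 19.0 CPM in WT and 16.5, 14.9 and 12.9 in Het (-0.40, SE 0.223, edgeR unadjusted p = 0.0896). It rested there on 16 to 57 counts per embryo. In KO it was at 29.2, 17.2 and 17.4 CPM (0.01, SE 0.210).

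The other genes of the pathway were followed in 4 lists of 47 different genes: 11 kinases and adaptors, 12 scaffold and junction proteins, 4 VGLL cofactors of TEAD and 22 known target genes of YAP and TAZ, with Lats2 and Ptpn14 in 2 lists each. In KO excitatory neuron-like nuclei edgeR called 2 of 40 genes tested higher (Nf2 and Limd1, both upstream regulators) and 0 lower, against the 0.699% of all genes called higher. DESeq2 called 3 (2 of the scaffold list and the cofactor Vgll4), against 1.06% of all genes called higher, and edgeR with the replicate block 5 (Nf2, Limd1, Vgll4, Stk3 and Crim1), against 3.56%. Nf2, the scaffold that activates the LATS kinases, went from 82.7, 86.9 and 85.4 CPM in WT to 106, 103 and 105 in KO (0.33, SE 0.0666, edgeR adjusted p = 0.0341). Limd1, a LIM-domain protein that binds LATS kinases, went from 10.8, 9.78 and 12.1 to 14.3, 16.2 and 15.4 CPM (0.53, SE 0.103, edgeR adjusted p = 0.0284). The KO and WT values of both did not overlap. Nf2 was not called without any 1 of WT 1, WT 2, WT 3, Het 1, KO 1 or KO 2 (0.0507 to 0.150), nor Limd1 without WT 1, WT 2, WT 3 or KO 2 (0.0546 to 0.137).

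Without the block, no target gene was called in excitatory neuron-like nuclei, and with it Crim1 was. There 0 of 18 target genes tested were called by edgeR and 0 of 13 by DESeq2, which gave the other genes no adjusted p. Of the 18, 3 had an unadjusted p under 0.05 (13% of all genes did), 11 had a change above 0, and their median log2 fold change was 0.157, beside -0.00644 over all genes. Crim1, a target gene, was at 120, 118 and 111 CPM in WT and 160, 151 and 120 in KO (0.33, SE 0.102, edgeR adjusted p = 0.159, or 0.0123 with the replicate block), and Arhgef17 at 21.8, 19.1 and 20.7 in WT and 21.7, 25.4 and 25.1 in KO (0.27, SE 0.0923, 0.222). Vgll4, the only VGLL cofactor abundant enough for a test there, competes with YAP and TAZ for TEAD proteins. It was at 62.7, 63.0 and 63.0 CPM in WT and 80.6, 71.6 and 75.8 in KO (0.30, SE 0.0692, edgeR adjusted p = 0.0595). DESeq2 called Vgll4, as did edgeR with the replicate block (adjusted p = 0.00472).

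Of the 11 kinases and adaptors 0 were called in these nuclei by either tool without the block, 3 had an unadjusted p under 0.05 beside the same 13% of all genes, 6 had a change above 0, and the median was 0.00301. Stk3, a kinase at the top of the chain, was at 85.5, 86.5 and 87.8 CPM in WT and 99.7, 100.5 and 99.3 in KO (0.23, SE 0.0587, edgeR adjusted p = 0.0830, or 0.0110 with the replicate block), and Mob1b, an activator of the LATS kinases, at 86.3, 80.9 and 84.2 in WT and 79.7, 70.4 and 75.1 in KO (-0.13, SE 0.0612, 0.383). Frmd6, of the scaffold list, was at 20.8, 25 and 23.0 CPM in WT and 26.4, 28.9 and 24.0 in KO (0.22, SE 0.105, 0.391).

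In Cajal-Retzius-like nuclei 0 of 28 listed genes tested were called by edgeR and 0 of the 7 with an adjusted p by DESeq2. Of the 28, 6 had an unadjusted p under 0.05 (9.01% of all genes did), 22 had a change above 0, and the median was 0.185, beside -0.00965 over all genes. All 8 target genes tested there had a change above 0, with a median of 0.185, as the list of scaffold and junction proteins had in 6 of 9 (median 0.405). Vgll4 was at 106, 124 and 155 CPM in WT and 168, 162 and 177 in KO (0.42, SE 0.145, edgeR adjusted p = 0.314), Sav1, the adaptor of the STK kinases, at 15.1, 12.2 and 25.9 in WT and 27.6, 35.3 and 20.9 in KO (0.66, SE 0.334, 0.589), and Dlg5, a scaffold, at 61.9, 66 and 37.9 in WT and 66.5, 70.0 and 87.6 in KO (0.44, SE 0.202, 0.523). Wwc1, a scaffold that promotes LATS activity, was at 42.6, 40.4 and 28.2 CPM in WT and 25.8, 24.7 and 21.4 in KO (-0.63, SE 0.248, 0.435), and Mob1b at 77.0, 69.6 and 64.7 in WT and 56.3, 37.1 and 61.6 in KO (-0.40, SE 0.196, 0.577). The target genes Asap1 (0.28, SE 0.142, 0.589) and Dock5 (0.25, SE 0.419, 0.924) did not pass either. In the radial glia-like, progenitor-like and inhibitory neuron-like classes edgeR called 0 listed genes, of 41, 38 (intermediate), 32 (inhibitory) and 42 tested. DESeq2 also called 0, with an adjusted p for 27 of the 42 and for every gene in the other classes, and 0, 2, 1 and 4 had an unadjusted p under 0.05, beside 2.83%, 3.51%, 2.64% and 5.62% of all genes. With the replicate block 2 of the 42 were called in inhibitory neuron-like nuclei (Nf2 and Vgll4), against 0.816% of all genes called there in either direction.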

How the data were processed

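RNA of single nuclei was measured in 18 libraries (9 embryos, 2 runs each). Groups came from the sample titles; in run 1 the genotype tag reads WT for all 9 libraries and conflicts with the titles, and in run 2 it matches them. The authors mapped reads to mm10 with the ScaleRna pipeline and separated nuclei from background, and the deposited matrices hold expected counts (estimated UMI counts, in part not whole) per gene and nucleus. Per the labels, the submitters' processing notes name Seurat 4.3.0, Scanpy 1.12.0 and DESeq2 1.38.3.

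Nuclei were kept with the study's limits: between 800 and 6000 UMIs, between 300 and 3000 genes, a mitochondrial share of no more than 1%, and log(genes) divided by log(UMIs) no lower than 0.9. Then the 5% with the highest Scrublet scores were removed from each library. Clustering (scanpy 1.11.5, 3000 variable genes, 50 principal components, 20 neighbours, Leiden resolution 1) left out the members, the genes of the Hippo lists, Myt1l, and sex-linked and mitochondrial genes. Clusters were named X-like from fixed markers; 7 of 27 clusters (20.6% of nuclei) stayed unnamed and entered no class, and names may differ from those of the study. Counts were summed per embryo and class, rounded, and tested with edgeR 4.0.16 (quasi-likelihood F-test, two-sided, TMM scaling, filterByExpr, all 9 embryos, genotype only), with Benjamini-Hochberg adjustment over all genes of a class. A call needed an adjusted p under 0.05 and a log2 fold change beyond 0.2, and a class or cluster at least 20 nuclei in every embryo. Interactions were fitted with embryo as a term. No test of levels was run between classes, which clustering defines. Scripts were tested on simulated data.

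Named were all members, each listed pathway gene that was called and otherwise the 2 of each list with the largest change among those of at least 20 CPM in excitatory neuron-like and Cajal-Retzius-like nuclei, and the 3 genes most like each member. The members, lists and tests were chosen with earlier results of these data known. Replicate numbers are shared by the genotypes in the titles. Deviations of embryos with the same number correlated at over 0.1 in every pair in 4 classes (excitatory neuron-like 0.109 to 0.266, inhibitory neuron-like 0.127 to 0.306, radial glia-like 0.132 to 0.304, excitatory intermediate progenitor-like 0.124 to 0.245), and the numbers were taken to pair the embryos there, but not in Cajal-Retzius-like (0.0395 to 0.184) or inhibitory progenitor-like nuclei (0.0674 to 0.186). Embryos differed beyond sampling noise, so none was counted as a repeat. Alternatives were DESeq2 1.42.0, relative log expression scaling, no filter, the replicate block, 6 embryos alone, each run alone, no upper limits, no doublet removal, Leiden resolution 2, each embryo left out, and, added after the data were seen, an unnamed cluster joined to the excitatory neuron-like class. Gene positions are from GENCODE vM21 (GRCm38), whose versioned identifiers matched.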

Additional observations from a re-analysis of the deposited data

Results flagged for a closer look

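The change of Yap1 in KO was larger in excitatory neuron-like than in radial glia-like nuclei by 0.74 on the log2 scale (SE 0.145, edgeR adjusted p = 0.0443, interaction test), and stood out because the effect of 1 genotype differed between 2 kinds of nuclei. Over the embryos left out in turn the difference ran from 0.64 (without KO 1) to 0.86 (without KO 3).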

How the results depend on the processing

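Of 511 recomputed counts of calls 460 stayed within 1.5 times the reported count. Most of the reported counts were 0, where this means only that 0 stayed 0. Of 392 recomputed changes of single genes 306 kept their direction and side of the threshold, 78 lost their call, 6 gained one and 2 changed sign. Only a change that was called could lose its call, and many of the 392 belong to changes that were not called. These totals therefore do not measure how stable the calls were, which the counts below show. In excitatory neuron-like nuclei the number of members called in KO, 2 as reported, was 4 with the replicate block, 3 without the filter, 1 without upper limits, without doublet removal or in run 2 alone, 0 in the fit of 6 embryos or in run 1 alone, and 0 to 2 with 1 embryo left out. In Cajal-Retzius-like nuclei the count of 1 was 0 in run 2 alone and 0 to 1 with 1 embryo left out. Over neuron clusters, the 5 pairs of member and cluster became 9 with the block, 3 in the fit of 6 embryos or in run 2 alone, 0 in run 1 alone and 0 to 5 with 1 embryo left out. For the difference between excitatory neuron-like and radial glia-like nuclei, the count of 1 was 2 without the filter, 0 without doublet removal and 0 to 2 with 1 embryo left out. Of the listed pathway genes in excitatory neuron-like nuclei, 2 as reported, 5 were called with the block (which raised all genes called higher from 0.699% to 3.56%), 0 in the fit of 6 embryos or in either run alone, and 0 to 2 with 1 embryo left out; in inhibitory neuron-like nuclei 2 were called with the block, against 0.816% of all genes, and 0 without it. The block changed no other count of members or listed genes in the classes by over 1.5 times. The cause of these shifts was not tested.

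The Wwtr1 change in excitatory neuron-like nuclei ranged from -0.0098 (without KO 1) to 0.42 (without KO 3) with 1 embryo left out, and the Het change of Yap1 there to -0.18 in run 1 alone. Of 180 recomputed levels 164 moved by less than the spread between embryos. In run 1 alone, Tead1 was at 428 CPM in intermediate progenitor-like, 530 in inhibitory progenitor-like and 215 in inhibitory neuron-like nuclei, Tead2 at 31.7 in inhibitory neuron-like and 41.0 in Cajal-Retzius-like nuclei, and Tead3 at 18 in intermediate progenitor-like and 9.45 in inhibitory progenitor-like nuclei. In that run Tead4 was at 2.55 CPM in intermediate progenitor-like, 0.957 in excitatory neuron-like and 0.761 in inhibitory neuron-like nuclei, Yap1 at 119 in radial glia-like nuclei, and Wwtr1 at 5.04 in excitatory neuron-like and 5.72 in inhibitory neuron-like nuclei. Wwtr1 was at 42.3 CPM in intermediate progenitor-like nuclei without upper limits, and at 4.82 in excitatory neuron-like and 5.74 in inhibitory neuron-like nuclei without doublet removal. Run 1 held 37942 of 194335 nuclei. Yap1 and Tead3 in excitatory neuron-like nuclei were at under 12 CPM and rested on 73 to 139 counts per embryo in 3 embryos a genotype, and the smallest change detectable at this depth was not estimated.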

Other observations

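An unnamed cluster led by Nr4a3, Gpr176 and Chst8 (9571 nuclei), in which 8 excitatory neuron markers were detected, showed Yap1 at 7.12, 4.79 and 4.46 CPM in WT and 12.5, 10.2 and 9.90 in KO, without overlap (log2 fold change 1.01, SE 0.249, edgeR adjusted p = 0.130, or 0.0207 with the replicate block, which called 1.03% of all genes higher there). With this cluster added to the excitatory neuron-like class, the Yap1 change was 0.85 (edgeR adjusted p = 0.0135) and the Tead3 change 0.56 (edgeR adjusted p = 0.0460). Tead1 in this cluster was at 178, 187 and 177 CPM in WT and 221, 197 and 196 in KO (0.20, SE 0.0874, edgeR adjusted p = 0.500).

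Other unnamed clusters also held the members. A cluster led by Otx2os1, Ano1 and Otx2 had 503 CPM of Tead1, 91.0 of Yap1 and 117 of Wwtr1 on average in WT, and a cluster led by Rspo2 and Rspo1, genes of the cortical hem, 413 of Tead1, 26.8 of Yap1 and 46.8 of Wwtr1. Within inhibitory neuron-like clusters the mean WT level of Tead2 ran from 3.69 CPM (led by Bnc2) to 102 CPM (led by Sfta3-ps, Lhx8 and Lhx6), and that of Tead1 from 119 to 323 CPM.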
